A study of Mus musculus with 48 samples.

Results

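The 36 genes described here are interferon-stimulated genes, a set named by symbol (Ifit1, Isg15, Mx1, Rsad2, Stat2 and others) and looked up among the 24062 gene symbols counted in each library of a mouse prefrontal cortex RNA-seq study. All 36 symbols were present. Type I interferons bind a receptor pair on the cell surface and activate the kinases Jak1 and Tyk2, which phosphorylate Stat2. Stat2 acts with Irf9 at interferon-stimulated response elements in the promoters of target genes, whose products sense foreign RNA, block translation, degrade RNA or trap viruses at membranes. Microglia, the resident macrophages of the brain, carry the receptors and keep a low level of this program at rest.

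The study asked how chronic ethanol drinking changes the transcriptome of microglia and of whole tissue in the medial prefrontal cortex of C57BL/6 mice. Ethanol mice (10) could drink 15% ethanol on alternate days over 60 days and were killed when the bottles were taken away, and water mice had water throughout. From each drinking mouse, 1% of the suspension of minced tissue was kept as total homogenate, and microglia were isolated from the rest after dissociation and myelin removal with magnetic beads against CD11b. A separate cohort was injected intraperitoneally with 1.5 mg/kg lipopolysaccharide (LPS), a bacterial Toll-like receptor 4 ligand, or with saline, and its microglia were taken 1 week later. Of 48 samples listed, 47 had counts: homogenate of 10 ethanol mice and 9 water mice, isolated microglia of 10 ethanol mice and 8 water mice, and 5 microglial libraries each from LPS and saline mice. Beads against CD11b can also hold neutrophils, monocytes and macrophages of the brain borders, homogenate was set aside before dissociation, and in either preparation fewer cells of a type and less RNA per cell cannot be told apart.

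Libraries held between 9.72 M and 67.5 M counts in genes, the shallowest being microglia of water mouse 24. Levels are given as CPM, a gene's count scaled to its library's total in genes. The 8 microglial markers summed to between 23800 and 33500 CPM in isolated cells and to between 474 and 616 CPM in homogenates, and the 8 neuronal markers to between 5690 and 8180 CPM in homogenates and to at most 99.5 CPM in isolated cells. The homogenates of water mice 21, 24, 25 and 26 carry the microglial isolation text in their protocol label, but their markers were those of homogenate. Libraries that stood apart in the interferon-stimulated genes are named before the results they touch. The homogenate of water mouse 25 held the highest CPM of its group for 29 of 36 members and that of ethanol mouse 14 for 19. The microglia of water mouse 19 did so for 15 members, with a summed neutrophil marker level of 16700 CPM against 45.9 to 321 CPM in the other water microglia. The shallow microglial library of water mouse 24 was lowest for 17 members, and 56.1% of its uniquely aligned reads lay outside genes.

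The promoters hold a shared letter pattern that the choice of genes did not use. The interferon-stimulated response element was searched as GAAA and a second GAAA with any 2 bases between them, on both strands (TTTC and TTTC on the reverse strand). Windows ran from 250 bases before to 50 bases after each start listed for a gene (GRCm38.p6), and a gene could have more than 1. A listed start need not be the RefSeq start of the gene: the Ifit3 window lies inside that gene, which begins at chr19:34583119 in RefSeq. Of the 36 members, 27 were matched to a window and 14 of these held the pattern, against 3.99% of 27025 genes with a window. The gamma-activated site, searched as TTCNNNGAA, which reads the same on both strands, was in 7 of the 27, against 9.55% of genes, and 1 base run can belong to both patterns. The unmatched members were Ifi27l2a, Oas2, Mx1, Usp18, Rtp4, Dhx58, Parp9, Parp14 and Zbp1. A match is a description of letters and not of a site in use. The 4 windows printed whole show the 250 bases before the start of the members with the pattern there that ranked highest by p after LPS, with the pattern in capitals.
Gbp2: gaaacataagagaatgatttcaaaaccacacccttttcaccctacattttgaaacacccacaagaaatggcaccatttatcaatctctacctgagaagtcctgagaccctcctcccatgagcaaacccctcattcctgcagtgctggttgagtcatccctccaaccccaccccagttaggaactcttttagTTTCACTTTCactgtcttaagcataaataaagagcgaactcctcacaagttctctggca
Trim30a: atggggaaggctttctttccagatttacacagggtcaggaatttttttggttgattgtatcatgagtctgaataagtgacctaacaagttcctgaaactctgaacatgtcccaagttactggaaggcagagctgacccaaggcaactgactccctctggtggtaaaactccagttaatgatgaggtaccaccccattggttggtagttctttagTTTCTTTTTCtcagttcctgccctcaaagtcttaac
Bst2: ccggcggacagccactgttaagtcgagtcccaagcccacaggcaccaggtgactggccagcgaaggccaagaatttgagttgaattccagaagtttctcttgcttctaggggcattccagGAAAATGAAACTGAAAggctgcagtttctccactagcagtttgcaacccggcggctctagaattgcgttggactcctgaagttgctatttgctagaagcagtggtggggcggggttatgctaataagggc
Ifit3: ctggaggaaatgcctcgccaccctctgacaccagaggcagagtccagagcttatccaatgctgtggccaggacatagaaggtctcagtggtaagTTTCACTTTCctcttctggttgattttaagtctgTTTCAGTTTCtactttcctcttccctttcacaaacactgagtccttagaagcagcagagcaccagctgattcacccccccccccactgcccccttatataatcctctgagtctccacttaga

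Gbp2 is on the plus strand at chr3:142620413-142620662, Trim30a on the minus strand at chr7:104465194-104465443, Bst2 on the minus strand at chr8:71537473-71537722 and Ifit3 on the plus strand at chr19:34583279-34583528. Counted back from the start, the pattern began at base -59 in Gbp2, at -36 in Trim30a, at -130 and, overlapping it, -124 in Bst2, and at -156 and -122 in Ifit3. The other 10 members with the pattern are shown as 30 bases around the first match, to let the flanks be compared. Those of Ifitm3, Ifih1, Ddx58 and Eif2ak2 began after the start, at base 3, 33, 3 and 19 of the transcript.
Ifit1: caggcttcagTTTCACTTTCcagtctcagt
Isg15: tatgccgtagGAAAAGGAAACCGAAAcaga
Oas1a: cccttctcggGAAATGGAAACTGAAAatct
Rsad2: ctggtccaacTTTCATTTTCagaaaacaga
Ifitm3: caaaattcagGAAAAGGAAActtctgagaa
Ifih1: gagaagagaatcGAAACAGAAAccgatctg
Ddx58: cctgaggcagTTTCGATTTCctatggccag
Stat2: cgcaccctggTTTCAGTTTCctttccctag
Gbp3: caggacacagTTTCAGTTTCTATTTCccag
Eif2ak2: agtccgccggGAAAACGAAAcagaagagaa

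These runs lie on GRCm38.p6 at chr19:34640775-34640804 (plus strand) for Ifit1, chr4:156200877-156200906 (minus) for Isg15, chr5:120907526-120907555 (minus) for Oas1a and chr12:26456553-26456582 (minus) for Rsad2. Those of Ifitm3, Ifih1 and Ddx58 lie at chr7:141010723-141010752, chr2:62646206-62646235 and chr4:40239804-40239833, all on the minus strand. Stat2 lies at chr10:128270266-128270295 and Gbp3 at chr3:142559989-142560018 on the plus strand, and Eif2ak2 at chr17:78882535-78882564 on the minus strand. Isg15, Oas1a and Gbp3 each held 2 overlapping matches inside the run. The genes themselves were spread over 14 chromosomes, with 6 on chromosome 11 and clusters of related genes on chromosome 19 (Ifit1, Ifit2, Ifit3), chromosome 5 (Oas1a and Oas2, with Oasl2 farther off), chromosome 3 (Gbp2, Gbp3) and chromosome 12 (Rsad2 beside Cmpk2).

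A score, the mean over the 36 genes of log2(CPM + 1), placed the preparations apart and the ethanol and water groups of each preparation close together. It was 2.46 ± 0.29 (SD, n = 9) in water homogenates and 2.40 ± 0.27 (SD, n = 10) in ethanol homogenates. It was 3.935 ± 0.29 (SD, n = 8) in water microglia, 3.89 ± 0.20 (SD, n = 10) in ethanol microglia, 3.75 ± 0.27 (SD, n = 5) in saline microglia and 4.16 ± 0.18 (SD, n = 5) in LPS microglia. Every microglial library lay above every homogenate, the lowest microglial score being 3.36 in saline mouse 38 and the highest homogenate score 3.15 in water mouse 25. Ethanol and water groups overlapped in both preparations, and LPS (4.002 to 4.46) overlapped saline (3.36 to 4.06) through a single saline library, that of mouse 45.

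**Figure D1:**
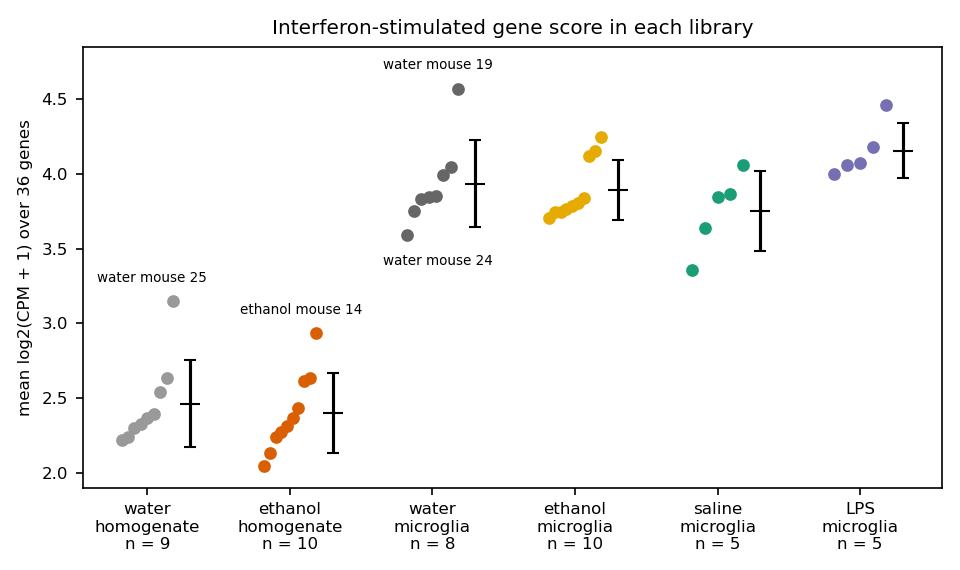
Interferon-stimulated gene score (vertical axis, mean log2(CPM + 1) over 36 genes) in each library (points), by group (horizontal axis), with the group mean and SD (bars). Homogenates lie between 2.05 and 3.15 and microglia between 3.36 and 4.57, and water mice 25, 19 and 24 and ethanol mouse 14 are labelled.

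Per kilobase of exon, which allows levels of different genes to be compared, the members spanned a wide range in water microglia. Lgals3bp, a secreted galectin-binding glycoprotein, led at 56.4 CPM per kb. Bst2 (tetherin), which holds budding virus at the cell surface, followed at 40.2, Slfn2, a Schlafen family gene known in mice for keeping T cells quiescent, at 36.2, and Ifitm3, which blocks fusion of viruses with endosomal membranes, at 34.6 CPM per kb. Slfn2 and Ifitm3 had their highest values in water mouse 19, whose CPM was 156 for Slfn2 and 91.3 for Ifitm3 against medians of 50.2 and 14.6. Trim30a, a mouse regulator of Toll-like receptor signalling, stood at 22.6 CPM per kb. At the bottom of the order, Zbp1, a sensor of Z-form nucleic acid, stood at 0.620 and Ifi44 at 0.0266 CPM per kb. The order differed in homogenate: Adar, the editing enzyme that turns adenosine into inosine in double-stranded RNA, was first at 27.2 CPM per kb in water homogenates, and Cmpk2, a mitochondrial nucleotide kinase, was at rank 4 there and at rank 32 in water microglia.

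Members also differed in how steady they were between mice. In water microglia the coefficient of variation was 5.32% for Dhx58, the RIG-I-like helicase also called LGP2, beside 4.71% for counting alone if every count were an independent read. It was 11.1% for Trim30a and 13% for Parp14. It was 158% for Samd9l, a restriction factor of poxviruses, 137% for Cmpk2 and 118% for Ifitm3, and each of the last 3 had its highest value in water mouse 19. The median over members was 31.9% in water and 30.2% in ethanol microglia, 39.0% in water and 43.6% in ethanol homogenates, and 41.3% in saline and 30.3% in LPS microglia. Even numbers made up a mean of 51.5% and 50.9% of the nonzero gene counts in water and ethanol homogenates. The means of the microglial groups were higher, from 58.9% with water to 64.65% after LPS, and the cause was not tested. Whether all counts in microglia are independent reads was not tested. In the saline microglia of mouse 38 members went both ways: it was highest of its group for 10, among them Trim30a at 123 CPM, and lowest for 15, with no count for Oas1a and 0.0480 CPM for Oasl2, while other saline libraries reached 5.11 and 8.03 CPM.

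Isolated microglia were compared with homogenate of water mice to find which interferon-stimulated genes the CD11b fraction carries above whole tissue. Most members were higher: 29 of 36 rose and 3 fell in edgeR's test (adjusted p under 0.05), where 35.3% of the 15057 genes tested rose and 49.1% fell. The median log2 fold change of the members was 2.146, against -0.37 over all genes. Of the 29, Mx1, Zbp1 and Ifi27l2a were too low to be tested between homogenates. They entered through their microglial counts, so a fall could not have been called for them. Of the 3 that fell, Ifi44 was too low to be tested between microglial groups. It entered through its homogenate counts, so a rise could not have been called for it. For 18 members every microglial library lay above every homogenate (23.8% of all genes) and for 2 every one lay below (40.3% of all genes). With the mouse as a block, which pairs the preparations of a mouse, 29 members passed, since Rsad2 (adjusted p = 0.0592), Ifitm3 (adjusted p = 0.0672) and Ifi44 (adjusted p = 0.0529) did not. Dissociation, myelin removal and bead capture are part of the contrast, and their share in it cannot be told apart.

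All 7 sensors and signalling genes rose (35.3% of all genes). Trim30a ran from 74.2 to 108 CPM in water microglia (median 91.9) and from 2.26 to 7.47 CPM in water homogenates (median 3.38), so that the groups lay far apart. It rose by 4.70 on the log2 scale (SE 0.19, adjusted p = 6.84e-14), about 26-fold, with the smallest p of the set. The cytosolic RNA helicases moved alike. Ddx58, the sensor RIG-I, ran from 33.4 to 61.9 CPM (median 50.5) against 5.04 to 11.8 CPM (median 6.51) and rose by 2.88 (SE 0.15, adjusted p = 3.46e-12). Ifih1, the sensor MDA5, ran from 25.1 to 36.6 CPM (median 32.7) against 4.44 to 13.8 CPM (median 7.13) and rose by 2.16 (SE 0.20, adjusted p = 9.57e-09). Dhx58 (LGP2), which tunes both, ran from 15.2 to 18 CPM (median 16.5) against 0.938 to 2.69 CPM (median 1.69) and rose by 3.39 (SE 0.19, adjusted p = 8.43e-12). None of the 3 helicases overlapped between the preparations. Trim25, the ubiquitin ligase that activates RIG-I, ran from 52.1 to 166 CPM (median 67.0) against 7.54 to 24.4 CPM (median 12.8) and rose by 2.62 (SE 0.24, adjusted p = 1.06e-08). Zbp1 rose by 4.23 (SE 0.91) from homogenate values of at most 0.439 CPM, too low to be tested between homogenates, so only a rise could have been called. Stat2, the signal transducer of type I interferon, rose by 0.92 (SE 0.09).

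The nuclear and ADP-ribosylation genes and the guanylate-binding GTPases also rose throughout (35.3% of all genes). Parp9 and Parp14, ADP-ribosyltransferase family members that neighbour each other on chromosome 16, were among the strongest. Parp14 ran from 95.9 to 152 CPM (median 129) in water microglia and from 4.71 to 17.3 CPM (median 7.06) in water homogenates, and it rose by 4.06 (SE 0.23, adjusted p = 7.46e-12). Parp9 ran from 48.8 to 82.1 CPM (median 56.2) against 2.94 to 8.61 CPM (median 3.98) and rose by 3.71 (SE 0.19, adjusted p = 1.68e-12). Neither overlapped between preparations. Sp100, a nuclear body protein, rose by 2.35 (SE 0.39), Gbp2 by 1.94 (SE 0.34) and Gbp3 by 2.22 (SE 0.23). Gbp2 and Gbp3, which bind membranes of intracellular pathogens, are close copies whose reads may be shared.

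Of the 6 genes of membranes and virus entry or release, 5 rose (35.3% of all genes). Mx1, a dynamin-like GTPase of which C57BL/6 mice carry a defective allele, had the largest fold, 5.07 (SE 0.52, adjusted p = 5.09e-08), with 1.60 to 11.3 CPM (median 6.48) in water microglia and 0 to 0.371 CPM (median 0.167) in water homogenates. This fold rests on homogenate counts near the floor, too low to be tested between homogenates. Bst2 ran from 26.9 to 46.8 CPM (median 35.9) against 1.54 to 7.30 CPM (median 2.50) and rose by 3.61 (SE 0.27, adjusted p = 5.25e-10). Both genes were apart in every library. Rtp4, a Golgi chaperone of membrane receptors, rose by 1.72 (SE 0.26), Rsad2 (viperin), which makes a chain-terminating nucleotide, by 1.54 (SE 0.44) and Ifitm3 by 1.38 (SE 0.51). Without water mouse 19 the Ifitm3 difference was 0.77 (adjusted p = 0.0681), and Ifitm3 shares sequence with its neighbour Ifitm2.

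The 3 genes of the ISG15 system rose (35.3% of all genes). Isg15, a ubiquitin-like modifier, rose by 2.13 (SE 0.28) and Usp18, the protease that removes it and dampens the receptor, by 1.58 (SE 0.38). Herc6, the mouse ligase that attaches Isg15, rose by 0.91 (SE 0.19). Among the other induced genes, Lgals3bp ran from 118 to 231 CPM (median 147) in water microglia and from 14.8 to 37.1 CPM (median 16.4) in water homogenates. The groups did not overlap, and Lgals3bp rose by 3.13 (SE 0.18, adjusted p = 1.45e-11). Ifi35, a leucine-zipper protein, ran from 15.0 to 25.4 CPM (median 23.3) against 1.44 to 5.89 CPM (median 3.08) and rose by 2.83 (SE 0.20, adjusted p = 3.33e-10). Xaf1, a pro-apoptotic zinc finger protein, rose by 0.84 (SE 0.18) and Ifi27l2a, a small mitochondrial interferon-induced gene, by 3.76 (SE 0.94), the latter from at most 0.580 CPM in water homogenates.

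The RNA-binding and RNA-degrading effectors were divided. Of 10, 5 rose (35.3% of all genes), 1 fell (49.1% of all genes) and 4 did not pass. Slfn2 ran from 30.8 to 156 CPM (median 50.2) in water microglia and from 1.23 to 3.43 CPM (median 2.07) in water homogenates, and it rose by 4.89 (SE 0.34, adjusted p = 2.17e-10). Eif2ak2, the RNA-activated kinase PKR that stops translation, ran from 26.9 to 41.3 CPM (median 33.3) against 6.72 to 10.9 CPM (median 8.44) and rose by 2.07 (SE 0.10, adjusted p = 6.21e-13). These 2 genes did not overlap between preparations. The oligoadenylate synthetases, which switch on the RNA-cutting enzyme RNase L, rose by 2.59 (SE 0.33) for Oas1a and 2.65 (SE 0.34) for Oas2, and the related Oasl2 by 1.00 (SE 0.36). Oas1a has close copies beside it that may share its reads.

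Adar, Cmpk2 and Ifi44 fell, and the Ifit genes did not rise. Adar ran from 209 to 242 CPM (median 219) in water homogenates and from 87.5 to 129 CPM (median 105) in water microglia, with no overlap, and fell by 0.97 on the log2 scale (SE 0.07, adjusted p = 2.45e-10). Cmpk2 ran from 21.6 to 27.7 CPM (median 26) in water homogenates and from 0.563 to 19.5 CPM (median 2.95) in water microglia, and fell by 2.41 (SE 0.55, adjusted p = 0.000544), about 5.32-fold. Its highest microglial value was that of water mouse 19 and the next was 4.53 CPM. Rsad2, its neighbour on chromosome 12, was called in the other direction. Ifi44, a tubulin-binding interferon-induced protein, fell by 1.897 (SE 0.77, adjusted p = 0.0290) from a mean of 0.649 CPM in homogenate to 0.163 CPM in microglia. Without water homogenate 25 it was not called (adjusted p = 0.0543). Ifi44 was too low to be tested between microglial groups and entered through its homogenate counts, so only a fall could have been called.

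The Ifit genes encode proteins that bind foreign RNA ends. Ifit1 stood at 2.26 ± 1.34 CPM (SD, n = 8) in water microglia and 3.16 ± 1.47 CPM (SD, n = 9) in water homogenates, a difference of -0.42 (SE 0.34, adjusted p = 0.264). Ifit3 stood at 5.37 ± 1.51 and 7.13 ± 3.82 CPM (-0.33, SE 0.28, adjusted p = 0.270). Ifit2 stood at 8.33 ± 3.49 and 12.5 ± 2.85 CPM, with -0.52 (SE 0.24) and an adjusted p of 0.0519 that crossed the threshold under 6 of the alternatives, with RLE scaling at 0.0369 among them. Samd9l stood at 0.96 (SE 0.56, adjusted p = 0.123) with all libraries and at -0.05 without water mouse 19, whose 84.3 CPM compared with at most 11.3 CPM in the other water microglia. Ifit3 has a near-identical copy in the mouse genome, Ifit3b, which is not among the counted symbols. Reads that fit both may have been dropped, which would lower Ifit3, or counted to it.

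**Figure D2:**
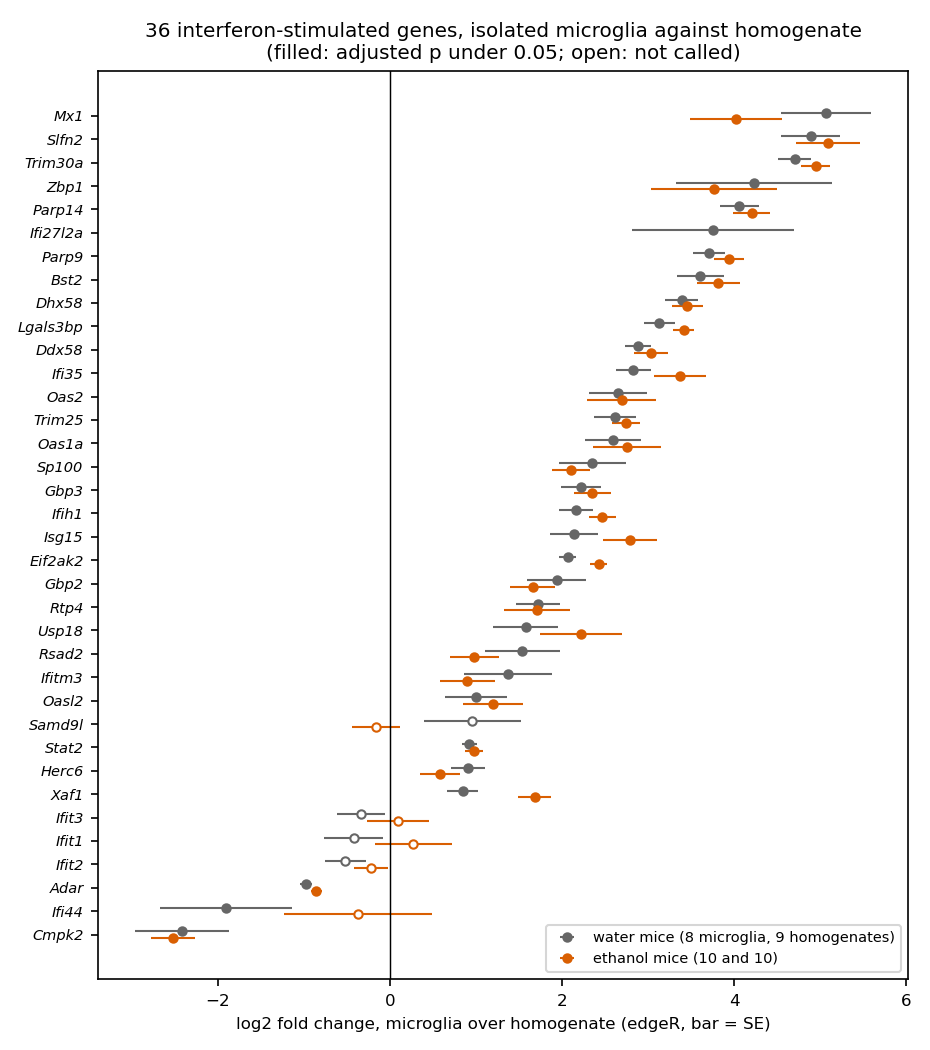
Log2 fold change of microglia over homogenate (horizontal axis, edgeR, bars are SE) for the 36 genes (vertical axis) in water mice (grey) and ethanol mice (orange), filled where the adjusted p was under 0.05. Mx1, Slfn2 and Trim30a lie above 4 in both, and Adar and Cmpk2 lie below 0 in both.

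In ethanol mice the same contrast was made on libraries of other animals. Of 35 members tested, 28 rose and 2 fell, where 38.8% of the 14637 genes tested rose and 45.6% fell, and the median was 2.35 against -0.21 over all genes. All 28 had also risen in water mice, 96.6% of the 29 there, the other being Ifi27l2a, which was too low to be tested in ethanol mice. The share of all genes called in the same direction in both kinds of mice was not computed. In either direction, 84.43% of all genes were called in water mice and 84.49% in ethanol mice, so this overlap is not read as particular to the members. Adar and Cmpk2 fell in both. Mx1 and Zbp1, among the 28, again entered through their microglial counts, being too low to be tested between homogenates. Every microglial library lay above every homogenate for 19 members (24% of all genes) and below for 2 (38% of all genes). RLE scaling moved the median of all genes to -0.43 and that of the members to 2.11. Under it Herc6 (0.36, adjusted p = 0.171) and Ifitm3 (0.65, adjusted p = 0.0556) were no longer called, and Ifit3, not called, stood at -0.13 in place of 0.09.

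The members with the smallest p were much the same kinds of gene. Trim30a ran from 78.0 to 118 CPM (median 91.0) in ethanol microglia and from 2.36 to 5.97 CPM (median 3.24) in ethanol homogenates and rose by 4.94 (SE 0.17, adjusted p = 4.46e-17). Lgals3bp ran from 125 to 209 CPM (median 166) against 13.1 to 22.8 CPM (median 17.5) and rose by 3.41 (SE 0.12, adjusted p = 9.83e-17). Eif2ak2 ran from 30.8 to 45.8 CPM (median 37.3) against 7.03 to 10.8 CPM (median 7.51) and rose by 2.42 (SE 0.10, adjusted p = 1.04e-15). In these 3 genes no library of one preparation reached the range of the other.

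The other members among the 12 smallest p were also apart in every library. The ADP-ribosylation genes came first: Parp9 ran from 48.5 to 68.6 CPM (median 55.7) in ethanol microglia and from 2.28 to 6.41 CPM (median 3.96) in ethanol homogenates and rose by 3.94 (SE 0.17, adjusted p = 2.56e-15). Parp14 ran from 90.2 to 158 CPM (median 128) against 4.57 to 15.9 CPM (median 6.68) and rose by 4.20 (SE 0.22). The RIG-I pathway genes followed the same pattern. Dhx58 ran from 12 to 25.1 CPM (median 17.8) against 1.25 to 2.86 CPM (median 1.83) and rose by 3.46 (SE 0.18), and Trim25 ran from 60.9 to 92.5 CPM (median 69.3) against 8.87 to 22.1 CPM (median 10.4) and rose by 2.74. Ddx58 ran from 22.3 to 56.5 CPM (median 49.6) against 4.20 to 10.2 CPM (median 6.07) and rose by 3.04 (SE 0.20). Ifih1 ran from 24.6 to 48 CPM (median 33.1) against 4.46 to 10.2 CPM (median 6.34) and rose by 2.47 (SE 0.16). The tetherin and Schlafen genes completed the group. Bst2 ran from 26.9 to 51.3 CPM (median 33) against 1.23 to 6.33 CPM (median 2.59) and rose by 3.82. Slfn2 ran from 36.3 to 83.0 CPM (median 44.8) against 0.242 to 3.04 CPM (median 1.66) and rose by 5.09 (SE 0.37, adjusted p = 2.78e-11).

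Of the 3 members that fell in water mice, Adar and Cmpk2 fell here too, while Ifi44 stood at -0.37 (SE 0.86, adjusted p = 0.697). Ifit1 and Ifit3, below 0 and not called in water mice, stood at 0.27 (SE 0.44) and 0.09 (SE 0.36) and were again not called. Adar fell by 0.85 (SE 0.06, adjusted p = 1.40e-11), from 205 to 249 CPM in homogenate against 95.3 to 137 CPM in microglia. Cmpk2 fell by 2.52 (SE 0.26, adjusted p = 8.89e-09), and its microglial values, 0.778 to 6.54 CPM, held no library like that of water mouse 19. Herc6, the weakest rise, was at 0.58 (SE 0.24, adjusted p = 0.0273) and was not called without ethanol homogenate 14 (0.51, adjusted p = 0.0634).

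The upstream genes of the pathway lay in the same direction, apart from the ligands. Of 11 interferon genes, none had counts enough to be tested in any comparison: Ifna1, Ifna2, Ifna4, Ifnl2 and Ifnl3 had no count in any of the 47 libraries, which allows up to 0.00186 CPM over the libraries together. Ifnb1, interferon beta, had a count in 10 libraries and reached 2.01 CPM in saline mouse 48. Ifng, interferon gamma, had a count in 12 and reached 2.82 CPM in saline mouse 46. Of 6 receptor genes 5 were tested in each preparation contrast and all 5 rose, with Ifnar1 at 1.02 (SE 0.06), Ifnar2 at 2.89 (SE 0.12) and Ifngr1, the interferon gamma receptor chain, at 4.88 (SE 0.11) in water mice. All 16 genes of JAK-STAT signalling and the interferon regulatory factors rose, with Irf9 at 2.16 (SE 0.12) and Irf7, which amplifies interferon production, at 1.85 (SE 0.36). Over all genes tested, 35.3% rose in water mice and 38.8% in ethanol mice.

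All 14 nucleic acid sensors and adaptors rose in both kinds of mice (35.3% of all genes in water and 38.8% in ethanol mice), with the endosomal RNA sensor Tlr7 at 6.44 (SE 0.18) in water mice. Of 28 further interferon-stimulated genes tested, 25 rose and none fell in water mice and 27 rose and none fell in ethanol mice. Ifi204, among those that rose in both, was too low to be tested between homogenates. It entered through its microglial counts, so a fall could not have been called for it. B2m, the light chain of class I histocompatibility molecules, was at 3.83 (SE 0.17) in water mice. Of the GTPases induced by interferon gamma, 7 of 11 rose in water mice and 7 of 10 in ethanol mice, and Gbp4, Gbp6 and Iigp1 did not pass in either. The 7 include Gbp8, which was also too low to be tested between homogenates and entered through its microglial counts.

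Ethanol was compared with water in isolated microglia to ask whether drinking changed this program there. No member of 35 tested passed in edgeR, where 0.00756% of 13223 genes did. DESeq2 (0.402% of its genes) and limma-voom (0.0605%) also called none, and 4 members had an unadjusted p under 0.05 (7.65% of all genes). The median log2 fold change was -0.07, with 10 members above 0, against -0.01 and 46.97% of genes above 0 overall. Without water mouse 19 the median was 0.0069 with 18 members above 0.

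The 6 members with the smallest p were these. Gbp2 ran from 10.6 to 16.6 CPM (median 12.2) in ethanol and from 11.1 to 29.3 CPM (median 16.4) in water microglia, with -0.46 (SE 0.16, adjusted p = 0.398). Samd9l ran from 2.93 to 14.3 CPM (median 6.37) against 3.37 to 84.3 CPM (median 8.48), with -1.32 (SE 0.48, adjusted p = 0.471). Ifitm3 ran from 6.17 to 22.7 CPM (median 13.6) against 6.79 to 91.3 CPM (median 14.6), with -0.91 (SE 0.38, adjusted p = 0.584). All 3 overlapped widely between the groups. Sp100 ran from 8.64 to 18.3 CPM (median 13.7) against 10 to 73.5 CPM (median 13.8), with -0.66 (SE 0.31, adjusted p = 0.626). Slfn2 ran from 36.3 to 83.0 CPM (median 44.8) against 30.8 to 156 CPM (median 50.2), with -0.39 (SE 0.24, adjusted p = 0.739). Xaf1 ran from 4.83 to 11.3 CPM (median 7.43) against 3.19 to 7.86 CPM (median 6.83), with 0.32 (SE 0.22, adjusted p = 0.784). Sp100 and Slfn2, like Samd9l and Ifitm3, had their highest water value in mouse 19. Without water mouse 19 the values were -0.15 for Samd9l, -0.13 for Ifitm3, -0.06 for Sp100 and -0.02 for Slfn2, while Gbp2 stood at -0.50 and Xaf1 at 0.27. All 9 neutrophil markers lay below 0 in this contrast, with a median of -2.78, and none was called, although each had an unadjusted p under 0.05. Their summed level was 16700 CPM in water mouse 19, 45.9 to 321 CPM in the other water libraries and 100 to 685 CPM in the ethanol libraries, with medians of 158 CPM for water and 356 CPM for ethanol. The part of neutrophils in the member values was not tested.

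**Figure D3:**
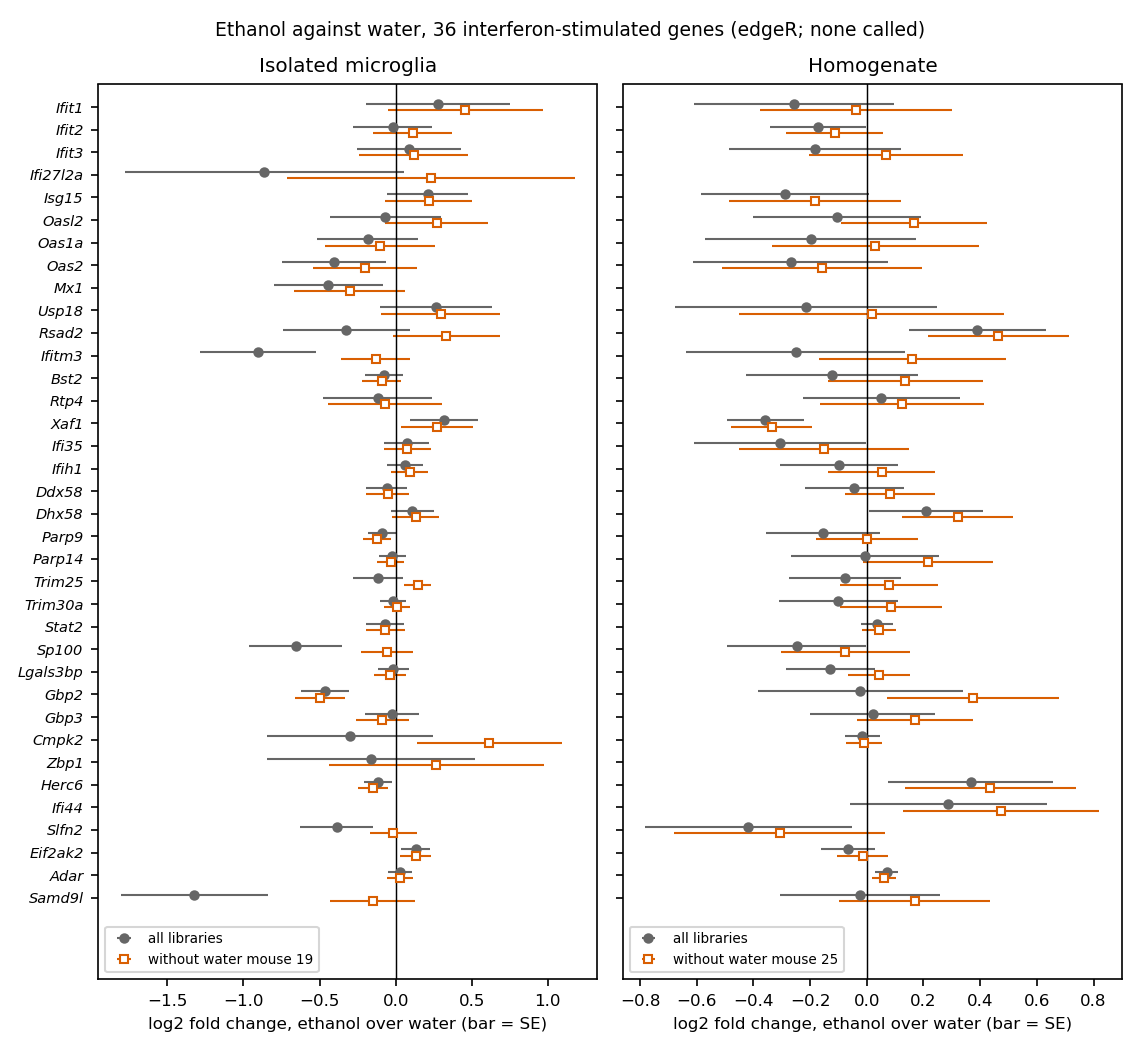
Log2 fold change of ethanol over water (horizontal axes, edgeR, bars are SE) for each gene (vertical axis) in isolated microglia and in homogenate, with all libraries (grey circles) and without water mouse 19 or 25 (open orange squares). Samd9l moves from -1.32 to -0.15 in microglia when mouse 19 is left out, and in homogenate 23 genes lie above 0 without mouse 25 against 8 with it.

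The smallest standard errors of the ethanol contrast in microglia belonged to members of middle to high level, though not to all of the most abundant. Adar was at 0.03 (SE 0.08), Trim30a at -0.02, Parp14 at -0.02 (SE 0.09), Parp9 at -0.09 (SE 0.09), Herc6 at -0.12 (SE 0.09) and Eif2ak2 at 0.13. At the other end, Ifi27l2a at -0.86 (SE 0.92) and Zbp1 at -0.16 (SE 0.68) had medians of 1.01 and 1.84 CPM in ethanol microglia. The receptors, JAK-STAT genes, sensors, further interferon-stimulated genes and GTPases gave no call either, in microglia or in homogenate. By the sequencing run inferred from position numbers that came with the deposited counts (the labels state no run), the ethanol minus water difference in score was -0.26 (4 and 4 libraries), 0.20 (4 and 3) and -0.09 (2 and 1), so its sign was not the same in each.

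Ethanol homogenates were compared with water homogenates in the same way. No member of 33 tested passed in edgeR, where 0.808% of 15215 genes did, and none passed in DESeq2 (3.8% of its genes) or limma-voom (0.776%). Ifi27l2a, Mx1 and Zbp1 were too low to be tested. One member, Xaf1, had an unadjusted p under 0.05, as did 16.1% of all genes. It ran from 1.99 to 3.83 CPM (median 2.60) in ethanol and from 2.73 to 4.84 CPM (median 3.47) in water homogenates, with -0.36 (SE 0.14, adjusted p = 0.195). Its groups overlapped. Next came Adar at 0.07 (SE 0.04, adjusted p = 0.406), with 205 to 249 CPM (median 230) against 209 to 242 CPM (median 219), the ranges again overlapping. Rsad2 ran from 1.34 to 4.6 CPM (median 2.35) against 0.803 to 2.80 CPM (median 2.06), with 0.39 (SE 0.24, adjusted p = 0.440). Herc6 ran from 6.72 to 35.4 CPM (median 27.2) against 10.4 to 30.3 CPM (median 20.3), with 0.37 (SE 0.29, adjusted p = 0.561). The last of the 6 smallest p were those of Slfn2, with 0.242 to 3.04 CPM (median 1.66) against 1.23 to 3.43 CPM (median 2.07) and -0.42 (SE 0.36, adjusted p = 0.603), and of Dhx58, with 1.25 to 2.86 CPM (median 1.83) against 0.938 to 2.69 CPM (median 1.69) and 0.21 (SE 0.20, adjusted p = 0.644). In each of these genes the ethanol and water ranges overlapped.

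The balance of signs in homogenate changed with the libraries kept and with a covariate. With all libraries 8 of 33 members lay above 0 and the median was -0.10. Without water homogenate 25 there were 23 above 0 and the median was 0.06, and without both it and ethanol homogenate 14 there were 13 and the median was -0.04. With all libraries and the share of reads outside genes as a covariate there were 21 and the median was 0.03. That share averaged 27.1% in ethanol and 22.5% in water homogenates. With it in the fit 0 of 15215 genes were called, against 123 without it. No member was called in any of these fits. The within-run differences in score were -0.20 (4 and 4 libraries), 0.0008 (4 and 4) and 0.17 (2 and 1).

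Across the 19 homogenates the score moved with markers of blood vessels and of border macrophages. The 5 libraries with the highest summed CPM of 8 endothelial markers (507 to 818) were also the 5 with the highest scores (2.62 to 3.15), 3 from ethanol and 2 from water mice. The other 14 lay at 267 to 427 CPM and at scores of 2.05 to 2.54. Water mouse 25 was highest and ethanol mouse 14 next on both measures, and the same 5 libraries had the highest sums of 8 border macrophage markers, 210 CPM in water mouse 25, 100 in ethanol mouse 14 and 74.5 to 90.7 in the other 3, against 38.7 to 64.9 CPM in the rest. The microglial markers, at 594 and 562 CPM in these 2 libraries, lay within the range of the others, and no neutrophil or lymphocyte marker sum in them passed 1.73 CPM. The part of endothelial or border macrophage RNA in the homogenate values was not tested. In microglia, the library of water mouse 19, with the highest score (4.57), was far above the others in neutrophil markers and, at 83.0 CPM, lowest of the water microglia in endothelial ones.

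**Figure D4:**
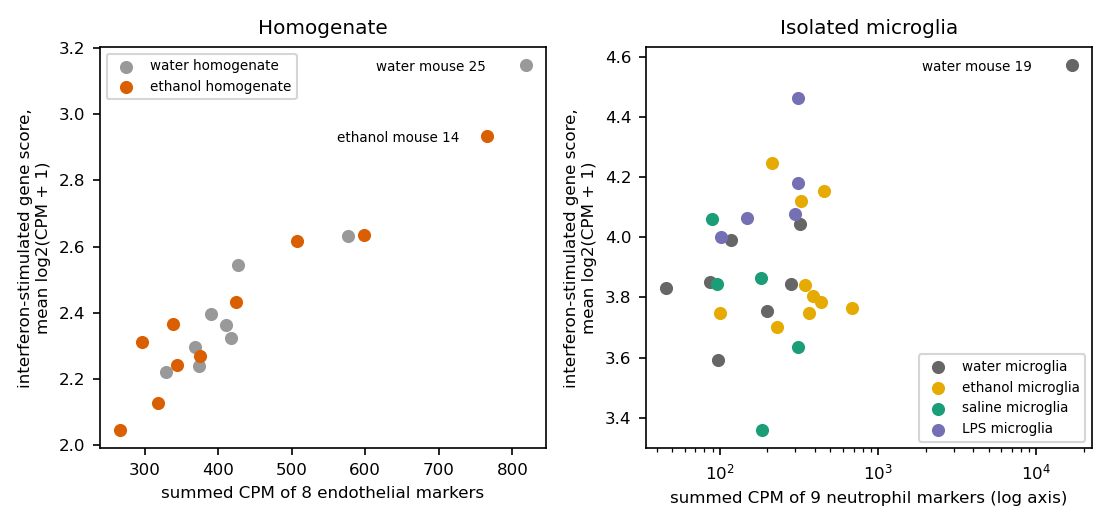
Interferon-stimulated gene score (vertical axes, mean log2(CPM + 1) over 36 genes) against summed CPM of 8 endothelial markers in 19 homogenates and of 9 neutrophil markers (log axis) in 28 microglial libraries, 1 point per library, coloured by group. The 5 homogenates from 507 CPM upward hold the 5 highest scores, and water mouse 19 lies alone at 16700 CPM.

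The difference between the ethanol responses of microglia and homogenate was fitted as an interaction. None of 36 members passed in edgeR, where 0.342% of 15797 genes did, none passed in DESeq2 (1.68% of its genes) or limma-voom (0.158%), and 2 had an unadjusted p under 0.05 (12.4% of all genes). These fits did not pair the preparations of a mouse. With the mouse as a block edgeR called 0 of 15797 genes, and 1 member had an unadjusted p under 0.05 (7.19% of all genes). Xaf1 stood at 0.70 (SE 0.25, adjusted p = 0.193), being above 0 in microglia and below 0 in homogenate. Samd9l stood at -1.26 (SE 0.61, adjusted p = 0.390). After these came Mx1 at -1.17 (SE 0.68, adjusted p = 0.521), Eif2ak2 at 0.23 (SE 0.13, adjusted p = 0.522), Herc6 at -0.46 (SE 0.32, adjusted p = 0.638) and Rsad2 at -0.68 (SE 0.50, adjusted p = 0.661).

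LPS microglia were compared with saline microglia 1 week after the injection. No member of 35 tested passed in edgeR, where 0.0160% of 12469 genes did, limma-voom called none (0.00802% of genes), and 3 members had an unadjusted p under 0.05 (5.78% of all genes). DESeq2 (2.39% of its 2799 genes) called 1 of the 6 members to which its filtering left an adjusted p, Lgals3bp, at 0.54 (adjusted p = 0.00145). Most members nevertheless lay above 0: 29 of 35, with a median of 0.34, against 49.31% of all genes and a median of -0.0046. Leaving out each library in turn gave 26 to 33 members above 0 and medians from 0.20 to 0.48. No member had groups that did not overlap, where 0.978% of all genes were higher and 0.674% lower without overlap.

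Lgals3bp stood at 260, 226, 225, 223 and 193 CPM after LPS and at 196, 155, 151, 140 and 140 CPM after saline. The highest saline value, that of mouse 45, lay just above the lowest LPS value, that of mouse 51. The difference was 0.53 (SE 0.11, adjusted p = 0.177). Ifit2, of the RNA-end-binding family, stood at 23.2, 22.6, 16.5, 11.7 and 10.1 CPM after LPS and at 13.2, 7.87, 5.78, 3.51 and 2.98 CPM after saline. Only saline mouse 45 reached into the LPS range, and the difference was 1.35 (SE 0.43, adjusted p = 0.592). Gbp2 stood at 33.8, 22.6, 19.5, 17 and 13.3 CPM after LPS and at 20.1, 15.3, 12, 11.6 and 7.54 CPM after saline, with more overlap and a difference of 0.69 (SE 0.32, adjusted p = 0.863).

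Adar stood at 132, 115, 107, 106 and 98.7 CPM after LPS and at 118, 100, 86.5, 85.2 and 78.5 CPM after saline, with 0.26 (SE 0.13, adjusted p = 0.899). Parp14 stood at 191, 150, 148, 145 and 144 CPM against 158, 143, 128, 126 and 112 CPM, with 0.22 (SE 0.13, adjusted p = 0.939). For Adar 2 saline libraries reached into the LPS range, and for Parp14 1 did. Trim30a went the other way, at 97.7, 93.4, 80.0, 74.9 and 38.8 CPM after LPS and 123, 98.6, 96.6, 88.2 and 85.8 CPM after saline, with -0.36 (SE 0.20, adjusted p = 0.932).

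**Figure D5:**
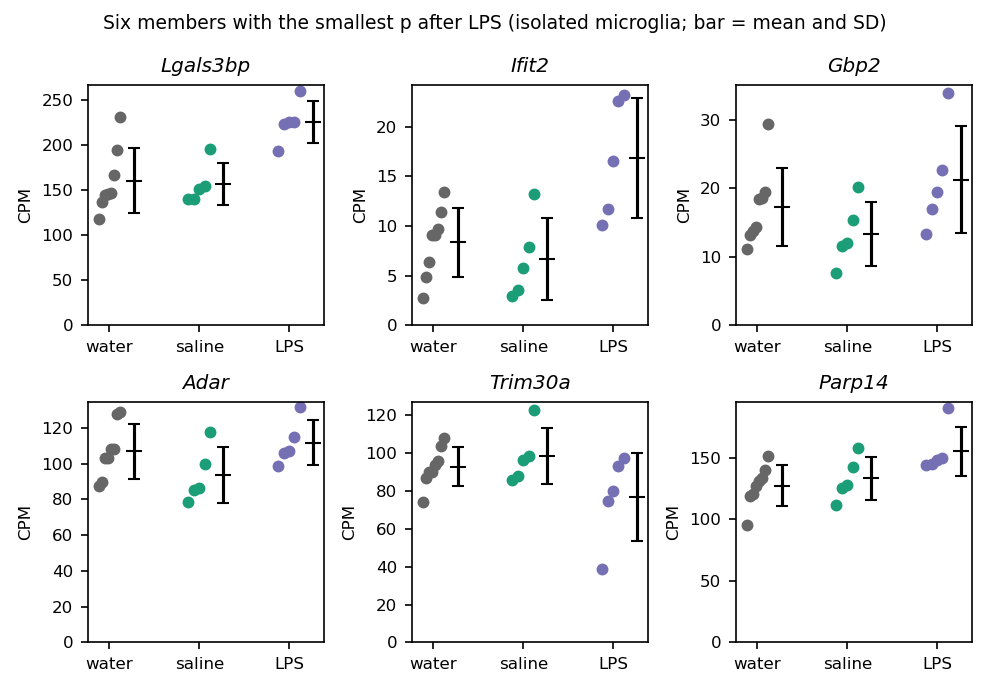
CPM (vertical axes, from 0) of the 6 genes with the smallest p in LPS against saline, in each microglial library (points) of water, saline and LPS mice, with the group mean and SD (bars). Lgals3bp reaches 193 to 260 CPM after LPS and 140 to 196 CPM after saline.

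By role, all 10 RNA-binding and RNA-degrading effectors (median 0.38), all 6 membrane genes (median 0.62), all 3 nuclear and ADP-ribosylation genes and both guanylate-binding genes lay above 0. Among the 7 sensors and signalling genes 3 did, with a median of -0.08. Without saline mouse 38, 33 of the 35 members lay above 0, and only Ifih1 at -0.05 and Trim30a at -0.25 lay below. These are counts of uncalled values, with errors as large as 1.765 for Ifi27l2a at 0.68 and 1.22 for Usp18 at 1.35. Oasl2 at 1.19 (SE 0.70) came close to separate groups, with 7.85 to 12.3 CPM after LPS and 0.0480 to 8.03 CPM after saline.

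LPS mouse 40 was highest of its group for 16 members, and without it 26 of 35 lay above 0 and the median was 0.20. Without saline mouse 38 there were 33 above 0 and the median was 0.28. The summed T and NK lymphocyte markers were 23.2 to 83.5 CPM in LPS microglia, highest in mouse 40, against 4.09 to 19.3 CPM in saline microglia. Of the 9 markers found, between 1 and 4 were at 0 in each LPS library and between 0 and 8 in each saline library. The summed monocyte markers were 601 to 975 against 534 to 767 CPM and the neutrophil markers 102 to 312 against 89.8 to 314 CPM. The part of these cells in the member values was not tested. Among the upstream genes no receptor, JAK-STAT gene, sensor, further interferon-stimulated gene or GTPase was called, with Ifnar1 at 0.26 (SE 0.10, adjusted p = 0.774), Irf9 at 0.38 (SE 0.18, adjusted p = 0.864) and B2m at 0.28 (SE 0.08, adjusted p = 0.491).

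Saline microglia were set beside water microglia to see how far the control groups of both cohorts differed. Cohort and injection cannot be told apart there, and all saline libraries but only 1 of the 8 water libraries, that of mouse 15, were in the third inferred sequencing run. No member of 35 tested passed in edgeR, where 0.832% of 13218 genes did, DESeq2 (2.53% of its genes) and limma-voom (1.28%) called none, and 3 members had an unadjusted p under 0.05 (11.6% of all genes). Ifih1 stood at 49.3, 45.3, 44, 43.6 and 34.7 CPM after saline and at 25.1 to 36.6 CPM (median 32.7) with water, with 0.48 (SE 0.13, adjusted p = 0.105). One saline library, that of mouse 46, lay within the water range.

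In the alternatives tried, Slfn2 was called only where water mouse 19 was left out. It stood at 131, 96.9, 89.9, 82.1 and 80.3 CPM after saline and at 30.8 to 156 CPM (median 50.2) with water, the highest being mouse 19 and the next 62.0 CPM, with 0.72 (SE 0.30, adjusted p = 0.359). Without water mouse 19 it was called, at 1.09 (adjusted p = 0.00607), and all saline libraries then lay above all water libraries. Ifitm3 stood at -1.18 (SE 0.52, adjusted p = 0.391), with the same water library at 91.3 CPM against 4.90 to 14.5 CPM after saline, and at -0.41 without that library. Isg15 stood at 14.7, 11.1, 6.42, 5.49 and 5.05 CPM after saline and at 1.88 to 7.33 CPM (median 5.56) with water, with 0.77 (SE 0.39, adjusted p = 0.479). Eif2ak2 stood at 43.3, 39.9, 39.2, 36.4 and 30.6 CPM against 26.9 to 41.3 CPM (median 33.3), with 0.22 (SE 0.13, adjusted p = 0.536). Mx1 stood at 6.30, 4.51, 4.28, 2.51 and 1.10 CPM against 1.60 to 11.3 CPM (median 6.48), with -0.80 (SE 0.51, adjusted p = 0.600). In each of these the saline and water ranges overlapped.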

How the data were processed

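RNA was measured by poly(A) RNA-seq in homogenate and CD11b-isolated microglia of mouse prefrontal cortex. The deposited files hold whole-number read counts per gene, made by the authors with STAR on mm10 and HTSeq after bcl2fastq 2.15.0.4, per the submitters' processing notes, which also name FastQC and DESeq2. Neither the strand setting nor the annotation is given in the sources used here. HTSeq's tally lines were left out of library totals, and reads outside genes were 19.87% to 56.08% of the uniquely aligned reads tallied. Libraries held 9.72 M to 67.5 M counts, and with no molecular identifiers, floors cover counting error only.

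CPM, the score (mean log2(CPM + 1)) and marker sums were computed in Python 3.11.15 with pandas 2.3.3. Each comparison was fitted across all genes with edgeR 4.0.16 in R 4.3.3 (TMM scaling, filterByExpr, quasi-likelihood test, Benjamini-Hochberg adjustment, threshold 0.05), tested on simulated counts first. Adjusted p with no tool beside them are edgeR's. DESeq2 1.42.0, limma-voom (limma 3.58.1), RLE scaling, no filter, a stricter filter (1 CPM), each library left out, water microglia 19 and 24 left out, inferred run as a term, the share of reads outside genes as a covariate and the mouse as a block were tried. Leaving out water homogenate 25 and ethanol homogenate 14 was chosen after seeing the data. Homogenate and microglia with the same number come from 1 animal per the labels' protocols; over 18 pairs the median correlation of deviations from group means was 0.0435 (-0.0343 to 0.134).

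The members and all gene lists were chosen with earlier results of these data known. Members given in full were, in each comparison, up to 12 with the smallest p among those called or, where fewer than 6 passed, the 6 with the smallest p, plus the 5 highest in CPM in water microglia; others named singly were chosen after their values were seen. No pair of libraries agreed within counting noise. Lengths are GENCODE exon lengths, gene positions are from RefSeq, and promoter windows are on GRCm38.p6.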

Additional observations from a re-analysis of the deposited data

Results flagged for a closer look

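Within each group of 4 to 10 libraries, the gap between the highest or lowest library and its nearest neighbour was compared with the group's range by Dixon's criterion. Chance alone flags about 1 in 20 groups, and 51 of 222 sets of values passed. Most belong to 3 libraries.

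The homogenate of water mouse 25 stood above the other water homogenates in 17 sets. Its score was 3.15 with the next at 2.63. Its CPM was 6.82 for Ifit1, 16.4 for Ifit3, 0.580 for Ifi27l2a, 8.68 for Oasl2, 28.7 for Ifitm3, 7.30 for Bst2, 5.89 for Ifi35 and 11.8 for Ddx58. It was 17.3 for Parp14, 24.4 for Trim25, 7.47 for Trim30a, 8.65 for Sp100, 37.1 for Lgals3bp, 13.9 for Gbp2, 0.439 for Zbp1 and 10.9 for Eif2ak2. The homogenate of ethanol mouse 14 stood above the other ethanol homogenates in 8 sets, with 7.42 CPM for Ifit1, 3.87 for Usp18, 20.5 for Ifitm3, 6.33 for Bst2, 22.1 for Trim25, 10.7 for Gbp2, 9.92 for Gbp3 and 10.8 for Eif2ak2. These libraries had the highest homogenate sums of endothelial markers, 818 and 766 CPM, and of border macrophage markers, 210 and 100 CPM, and the part of either cell type was not tested.

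The microglia of water mouse 19 stood above the other water microglia in 10 sets. The score was 4.57 with the next at 4.05. The CPM was 9.77 for Ifi27l2a, 16.8 for Oasl2, 19.3 for Rsad2, 91.3 for Ifitm3, 166 for Trim25, 73.5 for Sp100, 19.5 for Cmpk2, 156 for Slfn2 and 84.3 for Samd9l. Its neutrophil markers summed to 16700 CPM and its monocyte markers to 2390 CPM, and their part was not tested.

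The remaining sets were spread over 13 libraries. In homogenate, ethanol mouse 3 had 20.0 CPM of Ifit2 and ethanol mouse 7 had 20.2 CPM of Samd9l. In ethanol microglia, mouse 5 was low for Ddx58 at 22.3 CPM and for Gbp3 at 10.9 CPM, and mice 9, 2 and 11 were high for Herc6 at 41.6 CPM, Slfn2 at 83.0 CPM and Samd9l at 14.3 CPM. In water microglia, mouse 18 was low for Rtp4 at 2.19 CPM and high for Gbp2 at 29.3 CPM, mouse 17 was high for Parp9 at 82.1 CPM and mouse 15 for Ifi44 at 0.696 CPM. After LPS, mouse 40 was high for Ifit1 at 10.3 CPM and Ifi44 at 2.53 CPM, mouse 50 for Parp14 at 191 CPM and mouse 33 for Stat2 at 57.7 CPM. After saline, mouse 45 was high for Lgals3bp at 196 CPM.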

How the results depend on the processing

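The count of members called moved by over 1.5 times under 2 kinds of alternative: DESeq2 called 1 member after LPS, and leaving out water microglia 19 and 24 gave 1 in saline against water. Leaving out each library gave 29 to 33 called members for the preparations in water mice, 29 to 30 in ethanol mice, 0 to 1 in saline against water and 0 in each ethanol contrast, the interaction and LPS. With the mouse as a block the counts were 29 in water mice, 30 in ethanol mice and 0 for the interaction. Besides the loss of Rsad2, Ifitm3 and Ifi44 in water mice, the block changed no other call, and Ifit3 in ethanol mice, not called, turned to -0.0023.

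Other reversals were of uncalled values, and their cause was not tested. In ethanol mice Ifit3 was -0.13 with RLE scaling and -0.13 with DESeq2. In water mice Samd9l was -0.20 with DESeq2 and -0.12 without water microglia 19 and 24. In homogenate Slfn2 was 0.031 with the share of reads outside genes as covariate. With limma-voom the LPS values were 0.036 for Herc6, -0.34 for Mx1 and -0.0020 for Oas2. Leaving out 1 library, the LPS values ran from -0.020 to 1.09 for Ifit1, -0.11 to 1.44 for Ifi27l2a, -0.20 to 0.35 for Isg15, -0.083 to 0.49 for Oas2, -0.34 to 0.070 for Ifi35, -0.20 to 0.00056 for Dhx58, -0.35 to 0.028 for Stat2, -0.15 to 0.27 for Gbp3, -0.18 to 0.15 for Herc6 and -0.22 to 0.90 for Samd9l. For the preparations they ran from -0.049 to 1.15 for Samd9l in water mice, and in ethanol mice from -0.34 to 0.043 for Samd9l and -0.090 to 0.22 for Ifit3.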
